A study of Homo sapiens with 12 samples.

Results

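Caveolins and cavins are the coat proteins of caveolae, and 4 of the 5 genes listed here (CAV1, CAV2, CAVIN1, CAVIN2 and CAVIN3) could be read on the arrays, out of 20572 genes kept for testing. The cells were MDA-MB-231, an established human breast cancer line derived from a pleural effusion. Sets of 3 arrays each were hybridised with RNA from untreated control cells, from cells given the inflammatory cytokine TNFα at 40 ng/ml, from cells given the plant flavone apigenin at 40 µM, and from cells given TNFα and apigenin together at these doses. All 12 samples were taken at 24 h, the agents were prepared in HBSS, and the labels name no vehicle control. Members were taken as the probe sets that carry exactly 1 gene symbol, which must be that of a listed gene. CAV1, CAVIN1, CAVIN2 and CAVIN3 each had 1 such probe set. CAV2 had none, because its probe set was shared with CAV1, and it was therefore not read. The genes were proposed for description because CAVIN2 was known to differ with apigenin in these samples, so every difference with apigenin is given for the members as a description without a test.

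Caveolae are flask-shaped pits of the plasma membrane. Caveolins sit as hairpins in the inner leaflet, cavins assemble around them from the cytosol as a coat that needs cholesterol and phosphatidylserine, and EHD ATPases, pacsins and dynamin act at the neck. Caveolae flatten when the membrane is stretched, and they take part in lipid handling, signalling and endocytosis. Mesenchymal-like breast cancer lines such as MDA-MB-231 are known for abundant caveolin-1.

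Of the measured members, only CAV1 and CAVIN2 have promoters shown, because the promoter reference held no window for CAVIN1 or CAVIN3. Whether motif content goes with the expression values was not tested. Each line gives the 250 bases before the RefSeq start on GRCh38.p14, 5′ to 3′ on the gene's strand, with motif matches in capitals. The CAV1 window lies at chr7:116524759-116525008 on the plus strand and is the outermost of 3 windows listed for the gene. The CAVIN2 window lies at chr2:191847089-191847338 on the minus strand.
CAV1: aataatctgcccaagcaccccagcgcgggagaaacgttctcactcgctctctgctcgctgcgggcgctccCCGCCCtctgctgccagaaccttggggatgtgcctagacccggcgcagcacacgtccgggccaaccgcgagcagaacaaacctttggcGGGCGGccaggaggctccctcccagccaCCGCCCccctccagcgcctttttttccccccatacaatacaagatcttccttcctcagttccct
CAVIN2: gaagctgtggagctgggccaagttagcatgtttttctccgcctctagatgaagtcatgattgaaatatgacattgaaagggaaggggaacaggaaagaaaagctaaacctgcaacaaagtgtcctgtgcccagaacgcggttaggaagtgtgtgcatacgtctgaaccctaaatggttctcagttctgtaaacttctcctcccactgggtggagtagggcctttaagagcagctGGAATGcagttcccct
Both strands were searched for the GC box (GGGCGG), the TEAD motif (GGAATG), the AP-1 motif (TGANTCA) and the CArG box of serum response factor. The CAV1 window held 3 GC boxes and none of the other 3 motifs. The CAVIN2 window held no GC box and 1 TEAD motif, at bases 16 to 11 before the start. Of 35116 windows of this length, 42.6% held a GC box, 11.9% the TEAD motif, 6.57% the AP-1 motif and 1.16% a CArG box. None of the matches overlapped another, and a match is a run of letters, not a measured binding site.

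CAVIN2, also called SDPR or serum deprivation response protein, is a cavin that helps to bend the membrane and binds phosphatidylserine. The deposited values are on the log2 scale. In the untreated control the 3 arrays read 5.99, 5.71 and 6.04. With TNFα alone they read 5.64, 5.10 and 5.77. With apigenin alone they read 3.37, 3.50 and 3.69, and with both agents 3.20, 3.19 and 3.39. The 6 arrays with apigenin lay below the 6 arrays without it, with a gap of 1.41 between the lowest array of TNFα alone and the highest of apigenin alone. Untreated and TNFα arrays overlapped, as did apigenin and combined arrays. Group means were 5.91 ± 0.18 (SD, n = 3) untreated, 5.50 ± 0.35 (n = 3) with TNFα, 3.52 ± 0.16 (n = 3) with apigenin and 3.26 ± 0.11 (n = 3) with both. Apigenin alone minus control was -2.39 (SE 0.17, 95% interval -2.75 to -2.03), which is 5.25-fold lower. Both agents minus TNFα was -2.24 (95% interval -2.61 to -1.88), or 4.74-fold lower, and both agents minus control was -2.65, or 6.29-fold lower. Of 20572 genes, 2 had a lower difference in the first of these comparisons, 5 in the second and 1 in the third. In RNA from whole cultures, fewer cells of a type and less RNA per cell cannot be told apart.

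CAV1 encodes caveolin-1, the structural caveolin of non-muscle cells, and its values differed less. The untreated arrays read 7.12, 7.08 and 7.19. The TNFα arrays read 6.89, 6.92 and 6.89. The apigenin arrays read 6.49, 6.63 and 6.45, and the combined arrays 6.58, 6.65 and 6.43. The order was therefore untreated, then TNFα, then the pair of groups with apigenin, with no overlap at either step, while apigenin and combined arrays overlapped. Means were 7.13 ± 0.056 (SD, n = 3), 6.90 ± 0.017 (n = 3), 6.53 ± 0.090 (n = 3) and 6.55 ± 0.11 (n = 3) in that sequence. CAV1 with apigenin was 1.52-fold lower than in the control (-0.60, SE 0.11, 95% interval -0.83 to -0.37). In the presence of TNFα the difference was -0.35 (95% interval -0.58 to -0.12), or 1.27-fold lower. With both agents against the control it was -0.58, or 1.49-fold lower.

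CAVIN3, formerly PRKCDBP, is a cavin that binds protein kinase C delta. Its untreated arrays read 6.13, 6.43 and 6.20, and its TNFα arrays 6.05, 5.99 and 5.72. The apigenin arrays read 5.53, 5.08 and 5.78, and the combined arrays 5.35, 5.25 and 5.17. Untreated arrays were above those of every other group, by as little as 0.082 over TNFα, and the combined arrays were below all TNFα arrays. The apigenin arrays overlapped both the TNFα and the combined arrays. Means were 6.25 ± 0.16 (SD, n = 3) untreated, 5.92 ± 0.18 (n = 3) with TNFα, 5.46 ± 0.35 (n = 3) with apigenin and 5.26 ± 0.090 (n = 3) with both. The difference with apigenin alone was -0.79 (SE 0.17, 95% interval -1.15 to -0.44), or 1.73-fold lower. In TNFα-treated cells it was -0.66 (95% interval -1.02 to -0.31), or 1.58-fold lower, and both agents together against the control gave 1.997-fold lower. Apigenin replicate 2 was the lowest array for this gene, and without it the difference with apigenin alone was -0.60.

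CAVIN1, formerly PTRF, is the cavin without which caveolae do not form, and it was the member with the narrowest range. The untreated arrays read 7.17, 7.05 and 7.30, the TNFα arrays 7.36, 7.19 and 7.23, the apigenin arrays 7.25, 7.15 and 7.33, and the combined arrays 7.29, 7.42 and 7.32. Every pair of groups overlapped. Means ran from 7.17 ± 0.13 (SD, n = 3) untreated to 7.34 ± 0.069 (n = 3) with both agents, a span of 0.17. Apigenin alone minus control was 0.07 (SE 0.11, 95% interval -0.17 to 0.31), and both agents minus TNFα was 0.08 (95% interval -0.16 to 0.32).

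**Figure D1:**
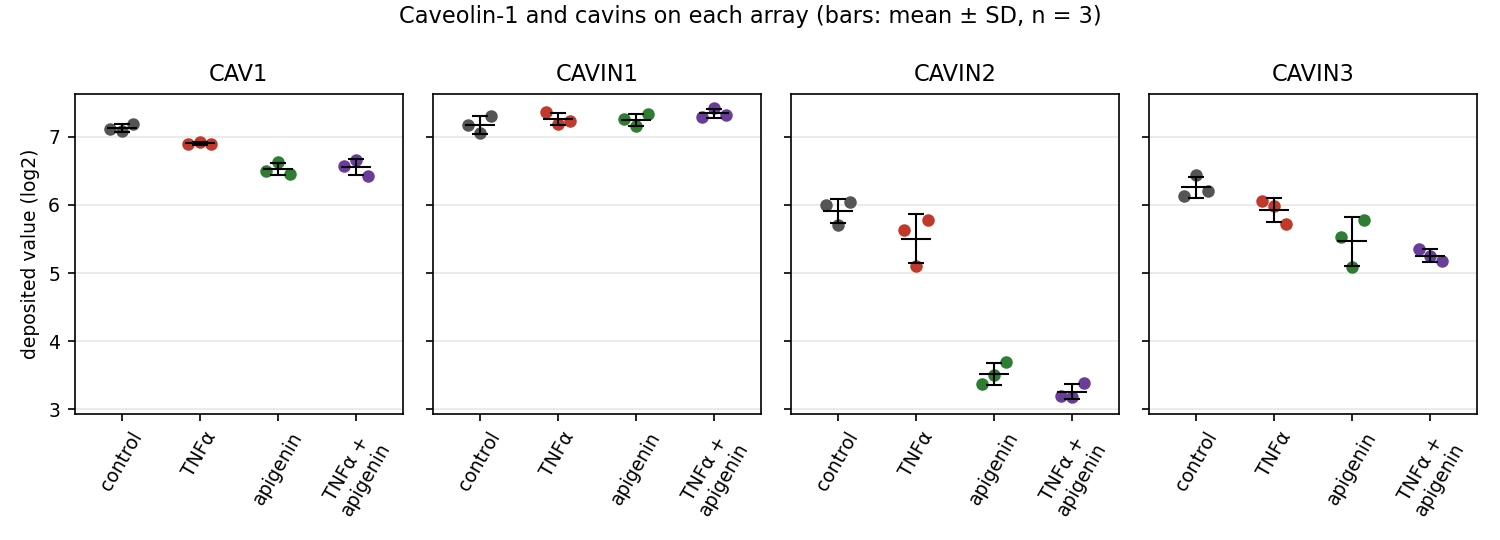
Deposited log2 value of CAV1, CAVIN1, CAVIN2 and CAVIN3 (y axis) on each of the 12 arrays by treatment group (x axis); points are arrays and black bars the mean ± SD, n = 3. CAVIN2 runs from 5.71 to 6.04 in untreated cells and from 3.19 to 3.39 with both agents, while the groups of CAVIN1 overlap.

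The 4 measured members thus had unequal differences with apigenin. CAV1, CAVIN2 and CAVIN3 lay lower without overlap in the apigenin group than in the untreated group, as did 14.5% of all genes. They also lay lower without overlap in the combined group than in the TNFα group, as did 14.6%. These are the contrasts on which CAVIN2 was chosen. Nothing is therefore read from the counts, or from the medians that follow, which include CAVIN2. The median difference of the 4 members was -0.70 with apigenin alone, against -0.02 over all genes, and -0.51 in TNFα-treated cells, against -0.01. When each gene's own mean was subtracted, CAV1 and CAVIN3 had the smallest root mean square difference of any pair of members over the 12 arrays (0.263). CAVIN2 was 0.843 from CAVIN3, 0.951 from CAV1 and 1.23 from CAVIN1. This distance grows with the size of the differences and does not compare their direction. CAV1 was thus nearer to CAVIN1 (0.314) than to CAVIN2, although CAV1 and CAVIN2 were both lower with apigenin. The intervals of the member differences are drawn side by side for both agents.

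**Figure D2:**
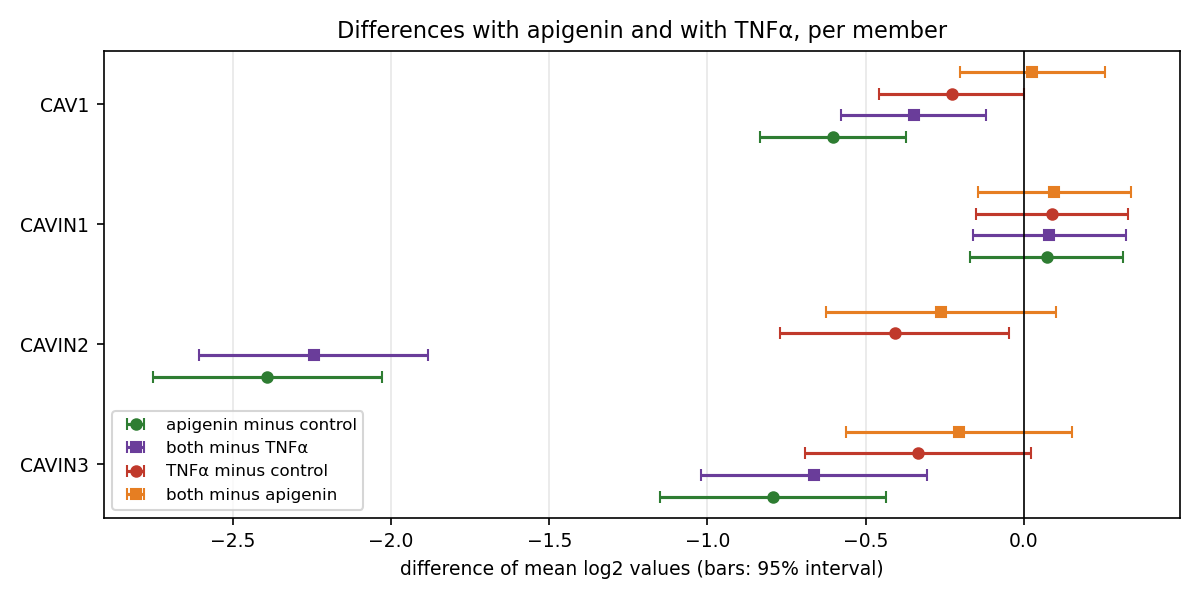
Difference of mean log2 values (x axis) for each member (y axis) in 4 comparisons; points are limma estimates and bars their 95% intervals. The CAVIN2 intervals with apigenin, -2.75 to -2.03 and -2.61 to -1.88, lie apart from those of the other members, and those of CAVIN1 span 0 in all 4 comparisons.

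The TNFα comparisons were not used to choose the members and could be tested, although they share arrays with the apigenin comparisons. No member passed the adjusted threshold of 0.05 with TNFα alone (limma, 0 of 4 members, against 0.997% of all genes). CAVIN2 was -0.41 (95% interval -0.77 to -0.05), with 2 of 3 TNFα arrays below every untreated array. Its limma p was 0.0298 before and 0.368 after Benjamini-Hochberg adjustment over all genes, and it was the 1 member under 0.05 before adjustment. Without TNFα replicate 2, its lowest array in that group, the CAVIN2 difference was -0.21. CAV1 was -0.23 (95% interval -0.46 to 0.00; limma adjusted p = 0.435) and CAVIN3 -0.33 (95% interval -0.69 to 0.02; limma adjusted p = 0.471). Both had 3 of 3 TNFα arrays below every untreated array, as did 5.22% of all genes. CAVIN1 was 0.09 (95% interval -0.15 to 0.33; limma adjusted p = 0.848). A test of 3 arrays against 3 by exact permutation of 1 gene cannot give a two-sided p under 0.1.

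In cells that also received apigenin, no difference with TNFα passed (limma, 0 of 4 members, against 0.209% of all genes), nor was any member under 0.05 before adjustment. CAVIN2 was -0.26 (95% interval -0.62 to 0.10; limma adjusted p = 0.812). CAVIN3 was -0.21 (95% interval -0.56 to 0.15; limma adjusted p = 0.87), CAV1 0.03 (95% interval -0.20 to 0.26; limma adjusted p = 0.988) and CAVIN1 0.10 (95% interval -0.15 to 0.34; limma adjusted p = 0.919). The average TNFα difference over cells with and without apigenin is orthogonal to the average apigenin difference. For CAVIN2 it was -0.34 (SE 0.12, 95% interval -0.59 to -0.08), with a limma p of 0.0141 before and 0.2 after adjustment. For CAVIN3 it was -0.27 (95% interval -0.52 to -0.02), with a limma p of 0.0378 before and 0.323 after adjustment, and 0 of 4 members passed, against 1.74% of all genes. After quantile normalisation of the deposited values, the CAVIN2 average became -0.41 with a limma adjusted p of 0.0353, so this call depends on the scaling.

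The test of whether TNFα and apigenin combined other than additively gave no call among the members (limma, 0 of 4, against 0.0535% of all genes). The interaction, the TNFα difference with apigenin minus that without it, was 0.26 for CAV1 (95% interval -0.07 to 0.58) and 0.15 for CAVIN2 (95% interval -0.37 to 0.66). It was 0.13 for CAVIN3 (95% interval -0.38 to 0.63) and 0.01 for CAVIN1 (95% interval -0.33 to 0.35). All 4 limma adjusted p-values were 0.999, none was under 0.05 before adjustment, and every interval held 0.

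CAV3 and CAVIN4 are the caveolin and cavin known from striated muscle, and both were read at low values here, near or not far above the array medians of 2.09 to 2.16. CAV3 lay between 1.70 and 2.47 on the 12 arrays with all groups overlapping. CAVIN4 read 2.23, 2.23 and 3.03 untreated, 2.92, 2.83 and 3.04 with TNFα, 3.25, 3.24 and 3.66 with apigenin, and 3.48, 3.13 and 3.54 with both. The 6 arrays with apigenin were above the 6 without it, which is the direction opposite to that of CAVIN2. The CAVIN4 difference with apigenin alone was 0.89 (SE 0.21; limma adjusted p = 0.0122). It missed the threshold without control replicate 1 (adjusted p = 0.0574), without control replicate 2 (adjusted p = 0.0502) or without apigenin replicate 3 (adjusted p = 0.0542). In TNFα-treated cells the CAVIN4 difference was 0.45 (SE 0.21; limma adjusted p = 0.215) and did not pass.

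Genes that act with caveolins and cavins were taken from 9 lists holding 127 genes, of which 118 were measured. The lists were chosen with earlier results of these data known, so their shares are a description. Shares of all genes depend on the filter. With genes kept only above the array median, 2438 of 15820 were called with apigenin alone, against 2342 of 20572 here. With apigenin alone, 3 of the 118 were higher and 27 lower (limma, 25.4% called, against 11.4% of all genes, 4.55% higher and 6.83% lower), with a median difference of -0.11 against -0.02 over all genes. In TNFα-treated cells, 4 were higher and 21 lower (21.2% called, against 10.1% of all genes, 4.21% higher and 5.92% lower), with a median of -0.14 against -0.01. With both agents against the control, 11 were higher and 19 lower (25.4% called, against 12.5%), a split that became 9 higher and 31 lower after quantile normalisation. With TNFα alone, 2 were higher and 2 lower (3.39% called, against 0.997%). These were PTGS2 (0.97), TGFBR2 (0.68), EDNRB (-0.81) and FLOT1 (-0.58), with limma adjusted p-values of 0.014 to 0.0348, and none was called without control replicate 1 (adjusted p 0.0635 to 0.129).

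Of the genes for the caveola neck and for assembly, 3 of 11 fell with apigenin alone and 2 of 11 in TNFα-treated cells, and none rose. On this small list that was 27.3% and 18.2% called, against 11.4% and 10.1% of all genes. ROR1, a receptor tyrosine kinase reported to hold caveolins and cavin-1 together, read 7.26, 7.16 and 7.56 untreated and 7.35, 7.42 and 7.64 with TNFα. It read 5.91, 6.0 and 5.89 with apigenin, and 5.95, 6.14 and 6.36 with both. ROR1 thus separated the 6 arrays with apigenin from the 6 without it, as CAVIN2 did. Its difference was -1.39 (SE 0.14; limma adjusted p = 4.19e-05) with apigenin alone and -1.32 (limma adjusted p = 9.51e-05) in TNFα-treated cells. EHD4, an ATPase of the EHD family, fell by 0.70 with apigenin alone (limma adjusted p = 0.00482) and was at -0.45 in TNFα-treated cells, which did not pass (limma adjusted p = 0.0589). EHD2, the family member known to sit at the caveola neck, was at -0.04 (limma adjusted p = 0.927), PACSIN2 at -0.14 (limma adjusted p = 0.57) and the dynamin DNM2 at -0.07 (limma adjusted p = 0.777), none of them called. The third gene called, PACSIN3, fell by 0.58 (limma adjusted p = 0.019), but not without control replicate 3 (adjusted p = 0.0782) or apigenin replicate 2 (adjusted p = 0.0848).

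Of 9 flotillins and other membrane scaffold genes, none was called with apigenin alone (limma, against 11.4% of all genes). In TNFα-treated cells 1 was called, a share of 11.1% against 10.1% of all genes. FLOT1, a flotillin of caveola-independent membrane domains, was 0.61 higher with both agents than with TNFα alone (limma adjusted p = 0.005). With TNFα alone FLOT1 was lower than in the control (-0.58, limma adjusted p = 0.0292). That call was lost on leaving out any 1 of control replicates 1, 2 and 3, TNFα replicates 2 and 3, or combined replicates 1 and 2 (adjusted p 0.051 to 0.135). Both FLOT1 calls share the TNFα arrays, with a mean of 7.91 against 8.50 untreated and 8.52 with both agents. With apigenin alone its difference was 0.16 (limma adjusted p = 0.469).

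Kinases and binding partners of caveolins and cavins gave 1 higher and 4 lower of 14 with apigenin alone. In TNFα-treated cells 1 was higher and 2 lower. These were 35.7% and 21.4% called, against 11.4% and 10.1% of all genes. PRKCA, protein kinase C alpha, a known binding partner of CAVIN2, was lower by a mean of -1.25 (SE 0.20; limma adjusted p = 0.00115) with apigenin alone and by -1.08 (limma adjusted p = 0.00384) in TNFα-treated cells. It read 6.74 ± 0.21 (SD, n = 3) untreated, 6.81 ± 0.38 (n = 3) with TNFα, 5.49 ± 0.12 (n = 3) with apigenin and 5.73 ± 0.34 (n = 3) with both. FYN, a Src family kinase, fell by 0.66 (limma adjusted p = 0.0023) with apigenin alone, from a low mean of 3.38 to 2.72. PER2, a clock protein reported to bind CAVIN3, moved the other way, by 1.20 (limma adjusted p = 0.000552) with apigenin alone and 1.10 (limma adjusted p = 0.00128) in TNFα-treated cells. SRC, the kinase that phosphorylates caveolin-1, was at -0.02 (limma adjusted p = 0.969) with apigenin alone.

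Of 16 receptors and enzymes reported in caveolae, 6 fell with apigenin alone and 5 in TNFα-treated cells, and none rose. The shares called were 37.5% and 31.2%, against 11.4% and 10.1% of all genes. TGFBR1 and TGFBR2 form the receptor for transforming growth factor beta. TGFBR1 was -1.26 (SE 0.13; limma adjusted p = 5.92e-05) and TGFBR2 -0.99 (SE 0.12; limma adjusted p = 0.00018) with apigenin alone. In TNFα-treated cells they were -1.05 (limma adjusted p = 0.000292) and -1.15 (limma adjusted p = 8.43e-05). BMPR2, a receptor for bone morphogenetic proteins, was -1.09 (limma adjusted p = 0.00087) and EGFR, the epidermal growth factor receptor, -0.87 (limma adjusted p = 0.000469) with apigenin alone. TGFBR2 also rose with TNFα averaged over cells with and without apigenin (0.59, limma adjusted p = 0.0025), and stayed called in all 12 fits that left out 1 array (limma adjusted p 0.00252 to 0.0107).

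The machinery of clathrin-coated pits, the other main endocytic coat, gave 0 higher and 5 lower of 20 with apigenin alone. In TNFα-treated cells 0 were higher and 4 lower. Here 25% and 20% were called, against 11.4% and 10.1% of all genes. DAB2, a cargo adaptor, was -1.25 (SE 0.21; limma adjusted p = 0.00168), and BIN1, an amphiphysin that bends membrane, -1.0 (limma adjusted p = 0.000816) with apigenin alone. DAB2 was read low, at a mean of 3.50 untreated and 2.26 with apigenin, the latter near the array medians of 2.09 to 2.16. EPS15, an early component of the pit, was -0.73 (limma adjusted p = 0.00502) with apigenin alone and -0.75 (limma adjusted p = 0.00549) in TNFα-treated cells. The clathrin heavy chain CLTC itself was at -0.13 (limma adjusted p = 0.54).

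Genes that make, move or break down cholesterol, sphingomyelin and phosphatidylserine gave 0 higher and 5 lower of 21 with apigenin alone. In TNFα-treated cells 1 was higher and 5 lower. Some of these genes remove a lipid and others provide it, so the counts give no direction of lipid supply. Called shares were 23.8% and 28.6% in these comparisons, against 11.4% and 10.1% of all genes. ATP8B1, a flippase that moves phospholipids to the inner leaflet, was -1.37 (SE 0.15; limma adjusted p = 6.79e-05) and -1.04 (limma adjusted p = 0.000634) in these comparisons. ANO6, a scramblase that exposes phosphatidylserine, was -0.63 (limma adjusted p = 0.00915) and the flippase ATP11A -0.60 (limma adjusted p = 0.00436) with apigenin alone. The gene that was higher in TNFα-treated cells was HMGCS1, an enzyme of cholesterol synthesis, at 0.70 (limma adjusted p = 0.0108), not called without replicate 3 of the combined group (adjusted p = 0.0502).

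Caveolae and the coactivator YAP are both known to respond to membrane tension. YAP, TAZ, TEAD and their targets gave 1 higher and 3 lower of 15 with apigenin alone, and 1 and 2 in TNFα-treated cells. Of this list 26.7% and 20% were called, against 11.4% and 10.1% of all genes. The named targets did not move one way. CCN2 was 1.12 (SE 0.15; limma adjusted p = 0.000292) and 1.14 (limma adjusted p = 0.000328) in these comparisons, and ANKRD1 -1.08 (SE 0.10; limma adjusted p = 2.69e-05) and -0.97 (limma adjusted p = 9.37e-05). YAP1 itself fell by 0.64 with apigenin alone (limma adjusted p = 0.00365). In the serum response factor axis, 0 rose and 1 of 10 fell in both comparisons, a share of 10% against 11.4% and 10.1% of all genes. That gene was VCL, which encodes the adhesion protein vinculin, at -0.67 (limma adjusted p = 0.0025) with apigenin alone and -0.52 (limma adjusted p = 0.014) in TNFα-treated cells. The latter call was lost without TNFα replicate 1 (adjusted p = 0.069) or combined replicate 3 (adjusted p = 0.0537).

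**Figure D3:**
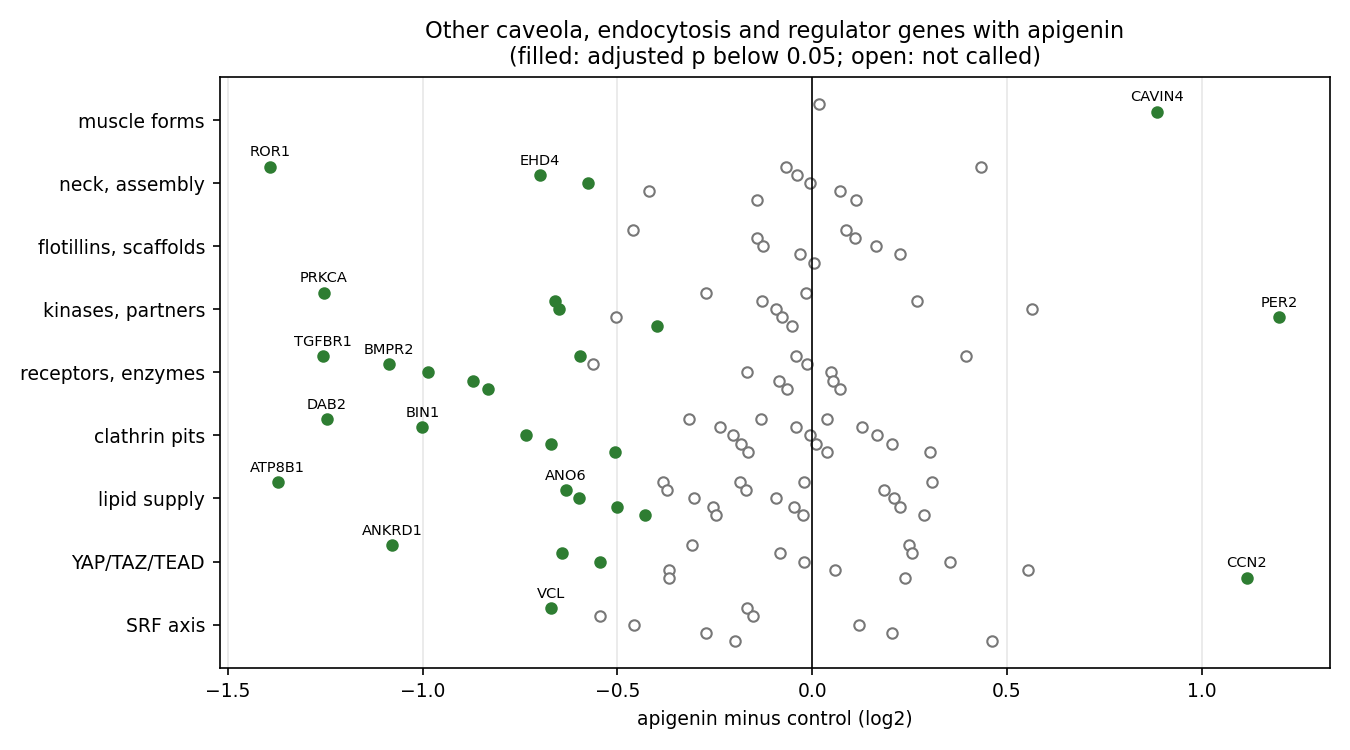
Apigenin minus control on the log2 scale (x axis) for the 118 measured list genes, by list (y axis); filled points have a limma adjusted p below 0.05 and open points do not, and the offset within a list only separates points. Filled points lie to the left in most lists, with ROR1 at -1.39 and ATP8B1 at -1.37, and 3 lie to the right: CAVIN4 at 0.89, CCN2 at 1.12 and PER2 at 1.20. The row marked lipid supply also holds genes that remove or break down a lipid.

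The genes whose pattern over the 12 arrays was nearest to that of each member were found by the root mean square difference of log2 values after each gene's own mean was subtracted, among 16148 protein-coding symbols. They were selected on these same values and are a description without a test. Nearest to CAVIN2 were PLK1, a mitotic kinase (0.189), CYP1B1, a cytochrome P450 (0.253), KIF20A, a kinesin of cell division (0.283), FAT4, an atypical cadherin (0.291), and IGFBP1, an insulin-like growth factor binding protein (0.317). PLK1 averaged 7.68 ± 0.17 (SD, n = 3) untreated, 7.53 ± 0.093 (n = 3) with TNFα, 5.54 ± 0.14 (n = 3) with apigenin and 5.31 ± 0.19 (n = 3) with both, and its groups with apigenin lay below those without it as CAVIN2's did. CYP1B1 averaged 7.06, 6.91, 4.67 and 4.41 in the same sequence. Nearest to CAV1 were DNM1L, the dynamin of mitochondrial fission (0.0733), SMC2, a condensin subunit (0.0874), the glucose transporter SLC2A1 (0.0916), the kinesin heavy chain KIF5B (0.0931) and the mitochondrial channel VDAC3 (0.095). Nearest to CAVIN3 were the adhesion receptor ADGRE5 (0.134), the thrombin receptor F2R (0.145), the adenosine receptor ADORA2B (0.161), SEMA6B, a semaphorin (0.163), and ISOC2 (0.173). CAVIN1 had a span of group means under 0.5 and was not searched. The distances grow with the span of the member, so those of CAVIN2 and CAV1 are not comparable.

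**Figure D4:**
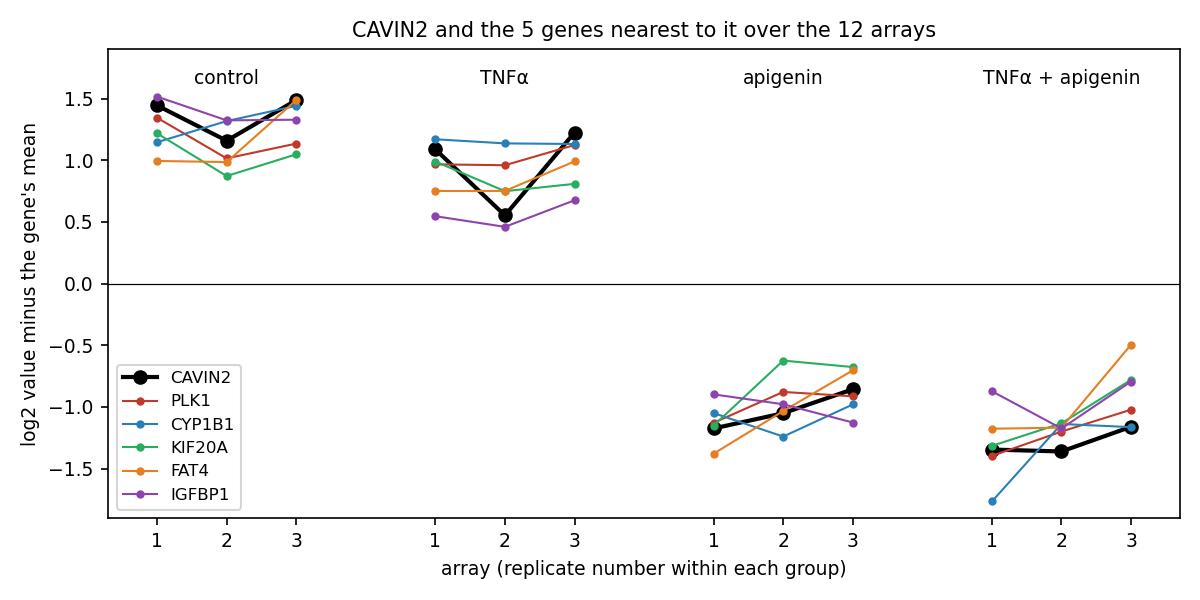
Log2 value minus the gene's own mean over the 12 arrays (y axis) for CAVIN2 (thick black line) and its 5 nearest genes, by array and group (x axis); lines join arrays of a group only to guide the eye. All 6 genes lie above 0 on the 6 arrays without apigenin and below 0 on the 6 with it.

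Markers of the labelled cell type and of others were read in all groups. The mean of 9 markers of mesenchymal-like breast cancer lines ranged over 7.50 to 7.72 in untreated cells, 7.79 to 7.92 after TNFα, 7.33 to 7.55 after apigenin and 7.52 to 7.65 after both agents, with AXL at 9.88 to 10.2, VIM at 7.93 to 8.30 and SPARC at 2.38 to 2.73. With apigenin alone, 1 of the 9 was higher (FOSL1, 0.78) and 2 lower (EGFR, -0.87, and LOX, -0.55; limma). The LOX call was barely under the threshold (limma adjusted p = 0.0496, against 0.000469 for EGFR). In TNFα-treated cells, 1 was higher (FOSL1, 0.53) and 3 lower (LOX, -1.07, EGFR, -1.03, and CD44, -0.63; limma). Called shares of these 9 markers were 33.3% and 44.4%, against 11.4% and 10.1% of all genes. Of the luminal markers, ESR1, PGR, CDH1 and FOXA1 had means of 2.09, 1.58, 1.95 and 1.79, and KRT8, KRT18, GATA3, EPCAM and KRT19 had means of 3.31, 3.42, 4.17, 4.93 and 5.11. In the luminal list (9 of 10 measured), 0 were higher and 2 lower with apigenin alone, 22.2% called against 11.4% of all genes. These were KRT19 at -0.95 (limma adjusted p = 0.00343) and KRT18 at -0.47 (limma adjusted p = 0.0452). The luminal list averaged 3.25 to 3.35 in untreated cells, 3.17 to 3.29 after TNFα, 3.04 to 3.12 after apigenin and 2.88 to 3.05 after both agents. The endothelial list (7 of 9 measured) averaged 2.46 to 2.58, 2.60 to 2.72, 2.28 to 2.36 and 2.34 to 2.39 in the same sequence. Within it CDH5 and VWF, which define that cell type, stayed at 2.18 to 2.55 and 1.68 to 2.07. KDR ran from 2.87 to 5.52 and was -1.63 with both agents against TNFα (limma adjusted p = 0.002). That comparison shares the TNFα arrays, where KDR was at 1.05 against the control, which did not pass (limma adjusted p = 0.104). With apigenin alone, and with both agents against the control, 0 endothelial markers were called. Adipocyte markers (6 of 6 measured) averaged 1.74 to 1.99 over all arrays, fibroblast markers (3 of 6) 1.85 to 2.08, muscle markers (5 of 6) 2.20 to 2.66 and leukocyte markers (3 of 6) 4.39 to 4.80, the last through CD68 at 9.52 to 9.95. EGFR and AXL stand both in the mesenchymal list and in lists of caveola-related genes. The part of the markers that differed between groups in the member differences was not tested.

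The median value of 173 small nucleolar RNA genes, a class of short nuclear RNAs, also differed between groups. It spanned 5.33 to 5.69 in untreated cells, 4.75 to 5.96 after TNFα, 5.77 to 6.34 after apigenin and 5.86 to 5.90 after both agents. With that median as a covariate, the CAVIN2 difference was -2.13 with apigenin alone and -1.98 in TNFα-treated cells, against -2.39 and -2.24 without it. With the same covariate 19 of the 118 list genes were called with apigenin alone and 11 in TNFα-treated cells. Among the list gene calls given above, EHD4 (adjusted p = 0.0519), EPS15 (adjusted p = 0.0624), PACSIN3 (adjusted p = 0.0898), ANO6 (adjusted p = 0.11) and ATP11A (adjusted p = 0.0567) no longer passed with apigenin alone, nor PRKCA (adjusted p = 0.0532), EPS15 (adjusted p = 0.0649) and VCL (adjusted p = 0.0816) in TNFα-treated cells. Without the arrays numbered 3, EPS15 (adjusted p = 0.0512), PACSIN3 (adjusted p = 0.0647) and ATP11A (adjusted p = 0.0742) did not pass with apigenin alone, nor FLOT1 (adjusted p = 0.0526) and VCL (adjusted p = 0.0824) in TNFα-treated cells. Markers outside these lists, such as LOX, FOSL1, CD44, KRT19 and KDR, were not followed in these alternatives, so whether their calls hold is not known. Between pairs of arrays of the same group, values over all genes correlated at 0.983 to 0.991, and no 2 arrays were identical. Nothing in the labels says whether the 3 arrays of a group came from separate cultures, so p-values measure the spread between these arrays, which may be technical.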

How the data were processed

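Total RNA of 12 samples, 4 groups of 3, was hybridised to Affymetrix whole-transcript arrays. The authors deposited 1 log2 value for each probe set and array. Per the submitters' processing notes they used Affymetrix Expression Console, whose version and summary method are unstated in the labels, as is the genome build. Of 53617 probe sets, 23871 carried 1 gene symbol. Genes at or above the 25th percentile of their own array on at least 3 arrays were kept, and of several probe sets per gene the one with the highest mean was used. Limma 3.58.1 (R 4.3.3) was fitted to all 12 arrays with 4 group means and 8 residual degrees of freedom; 7 contrasts were tested with Benjamini-Hochberg adjustment over 20572 genes at 0.05, after a check on simulated data. Intervals of 95% are for single genes. The members and lists were chosen with earlier results of these data known. Named list genes were drawn from up to 4 called genes per list and contrast with the largest absolute difference, and not all of these are given in the text. Calls not given include PLSCR1 with apigenin alone, lost in 8 of 12 fits that left out 1 array, and ITSN1 in TNFα-treated cells, lost in 0. Nearest genes are the 5 with the smallest root mean square difference for members whose group means span at least 0.5. Comparison genes that were not called, such as EHD2 and CLTC, were named after their values were seen. Promoter sequences come from a RefSeq table for GRCh38.p14. The number of arrays limits the precision. Alternatives were another normalisation, filter, probe set rule, variance model and sample set, the replicate number as a block and leaving out arrays; the median of small nucleolar RNAs as a covariate, and leaving out the arrays numbered 3, were added after seeing the data.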

Additional observations from a re-analysis of the deposited data

How the results depend on the processing

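No member's difference with apigenin and no called TNFα result reversed under any alternative run. Quantile normalisation gave -0.68 for CAV1 and 0.054 for CAVIN1 with both agents against the control, and brought the average TNFα difference of CAVIN2 to -0.41 with an adjusted p of 0.0353, so that 1 member was called. Fitting only the groups compared left 0 list genes called with TNFα alone, against 4 in the main fit. That setting uses fewer samples, but still called 3 higher and 20 lower with apigenin alone. For both agents against TNFα it called 4 higher and 19 lower. With the median of small nucleolar RNAs as a covariate, an alternative added once the data had been seen, 2 list genes were called with TNFα alone, 19 with apigenin alone and 11 with both agents against TNFα, and CAVIN2 was at -2.13 and -1.98 in the latter comparisons; the cause was not tested. Without the arrays numbered 3, also chosen after seeing the data, 1 list gene was called with TNFα alone, and CAV1 with both agents against the control was at -0.48. Leaving out 1 array at a time gave 0 to 4 list genes called with TNFα alone and 16 to 29 with both agents against TNFα, the lowest without replicate 1 of the combined group. The CAVIN2 difference ran from -2.49 to -2.32 with apigenin alone, from -2.45 to -2.11 in TNFα-treated cells and from -0.54 to -0.21 with TNFα alone, and no member was called with TNFα in those fits. Arrays with the same number correlated at 0.018 to 0.464 in their deviations from the group means, 13 of 18 pairs over 0.1, and 12 of 12 arrays correlated best with their own number, a hint from the data and not the design. With the replicate block, 3501 genes in place of 2342 were called with apigenin alone and 632 in place of 205 with TNFα alone, no member was called with TNFα, and the CAVIN2 average TNFα difference of -0.34 had an adjusted p of 0.053. Genome sequence was used only for the promoter windows, and no detection call entered. How far low values, such as those of CAVIN4, DAB2, FYN, PER2 and PTGS2, stand above background is therefore unknown.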

Other observations

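EHD1, an ATPase of the same family as the neck protein EHD2, was at 0.80 (limma adjusted p = 0.0042) with both agents against the untreated control, and 0.43 (limma adjusted p = 0.104) with apigenin alone. EHD1 was read at 2.33 ± 0.29 (SD, n = 3) untreated, near the array medians, and at 3.13 ± 0.26 (n = 3) with both agents. EDNRB, the endothelin B receptor, was at -1.12 (limma adjusted p = 0.00061) in this comparison, and ROR1 at -1.18 (limma adjusted p = 0.00013). ATP8B1 was at -1.29 (limma adjusted p = 8.87e-05) and ANKRD1 at -1.15 (limma adjusted p = 1.56e-05), while CCN2 was at 1.0 (limma adjusted p = 0.000545). All 6 of these genes stayed called in each of the 12 fits that left out 1 array.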
